A study of Mus musculus with 2 samples.

Results

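The histone genes of mouse limb were examined in polyadenylated RNA, as 79 protein-coding gene rows out of 43346 gene rows in all, of which 21474 were protein-coding. They were chosen by name: symbols of the Hist1 to Hist4 clusters formed the replication-dependent kind, with 64 members, and symbols beginning H2af, H3f3a, H3f3b and H1f formed the replacement kind, with 15. Both libraries belonged to 1 group, limb taken on embryonic day 14.5 from the C57BL/6J strain, so the data hold no contrast between conditions. Each library was labelled a biological replicate from pooled male and female littermates, carried no allele or treatment, and was read in stranded pairs from poly(A)-selected RNA over 200 nucleotides long with ribosomal RNA removed. Nothing in the labels says whether the pools came from separate litters, or which limbs were taken. All 11 limb markers examined were at 1 TPM (transcript abundance per library, corrected for transcript length) or more in both libraries, from 26.2 TPM for Hoxa13 to 1496 TPM for Col2a1. Tbx5, a forelimb gene, averaged 27.5 TPM, and Tbx4 and Pitx1, hindlimb genes, averaged 37.2 and 63.4 TPM. The gene rows held 110172148 counts in replicate 1 and 103363136 in replicate 2.

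Histones package DNA into nucleosomes, each built from H2A, H2B, H3 and H4, with the linker histone H1 binding between nucleosomes. Replication-dependent histone genes lie in clusters, mostly lack introns, and are transcribed in S phase to supply new chromatin. Their mRNAs are known for ending not in a poly(A) tail but in a short stem-loop, which stem-loop binding protein recognises and behind which the transcript is cut with the help of the U7 snRNP. Replacement histones are made throughout the cell cycle from ordinary, mostly spliced and polyadenylated mRNAs, and enter chromatin without DNA replication. In animal tissues some replication-dependent genes are also known to give polyadenylated mRNAs that end beyond the stem-loop.

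The 3′ ends decide whether a transcript can be selected by its poly(A) tail, so the stem-loops and polyadenylation signals of the annotated transcripts (GENCODE M21, GRCm38, the assembly also called mm10) are shown first. The stem-loop was searched on the sense strand as 16 bases: arms GGNNCT and AGNNCC that pair with each other, the first 2 N being C or T, around the loop TTTN. It was found in M21 transcripts of 42 of 64 replication-dependent members and 1 of 15 replacement members, against 48 of all 21951 protein-coding genes (0.219%), members included. The commonest form stood in 24 members and served H1, H2A, H2B and H3 genes alike. A form with A as the last loop base stood in 6 members of H1, H2B and H3. The H4 genes held 3 forms, with 7, 2 and 2 members. H2afx shared the arms of 9 of these H4 genes and had another last loop base, and Hist2h2ac had the arms of the commonest form, again with another last loop base. The examples show 6 of the 7 forms, with the stem-loop in capitals, 5′ to 3′, inside the annotated 3′ untranslated region.
Hist1h2ab: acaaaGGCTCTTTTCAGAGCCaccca
Hist1h2bk: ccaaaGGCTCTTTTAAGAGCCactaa
Hist2h2ac: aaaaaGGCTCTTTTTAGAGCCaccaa
Hist1h4n: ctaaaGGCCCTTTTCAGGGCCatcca
Hist1h4b: caaaaGGTCCTTTTCAGGACCactca
Hist1h1c: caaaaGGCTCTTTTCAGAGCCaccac
Hist3h2ba: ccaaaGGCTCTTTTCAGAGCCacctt
H2afx: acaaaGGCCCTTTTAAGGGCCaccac
They lie at chr13:23751567-23751592 (plus strand), chr13:22036295-22036320 (plus), chr3:96220413-96220438 (minus), chr13:21831793-21831818 (minus), chr13:23757361-23757386 (plus), chr13:23739507-23739532 (plus), chr11:58949344-58949369 (plus) and chr9:44335235-44335260 (plus), in the same order. H2afx was the only replacement member with the motif.

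The annotated ends differed in how far they ran past this motif. The Hist1h2ab model stopped 11 bases after it, the Hist1h4b model 28 bases after it and the Hist1h4n model 31 bases after it. The Hist3h2ba model ran on for 169 bases, the Hist1h1c model for 840 and the H2afx model for 822, and each of these ended with a polyadenylation signal. The signals, AATAAA or ATTAAA in the last 50 bases of the sense strand, are shown in capitals for these genes and for Hist2h2be, whose long model held no stem-loop match.
Hist1h1c: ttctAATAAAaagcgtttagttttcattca
Hist3h2ba: tattAATAAAtttggttcaattttggccac
Hist2h2be: tattAATAAAgttaccgattagtttc
H2afx: ttttATTAAAggatcgtttggttttgtttt
They lie at chr13:23740338-23740367, chr11:58949503-58949532, chr3:96223713-96223738 and chr9:44336039-44336068, all on the plus strand. One of these signals stood in the last 50 bases of 29523 of 58787 protein-coding M21 transcripts (50.2%).

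Replacement histones made up most of the histone TPM in these poly(A)-selected libraries. How much replication-dependent mRNA the selection left out was not measured. The 79 members summed to 6011 TPM in replicate 1 and 6006 TPM in replicate 2, of which replacement members held 4259 and 3754 TPM and replication-dependent members 1752 and 2253 TPM. The replication-dependent share of histone TPM was therefore 29.1% and 37.5%, a mean of 33.3% ± 5.92 (SD, n = 2). Without the length correction the share of counts was 12.2% and 15.1%, since the replication-dependent models had a median length of 484 nucleotides against 1244 for replacement models. By class, the share of TPM from replication-dependent genes was 9.98% and 9.18% for H1, 30.2% and 39.0% for H2A, and 17.2% and 26.9% for H3. No replacement member belonged to H2B or H4, where summed levels were 300.0 and 354 TPM for H2B and 217 and 202 TPM for H4.

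**Figure D1:**
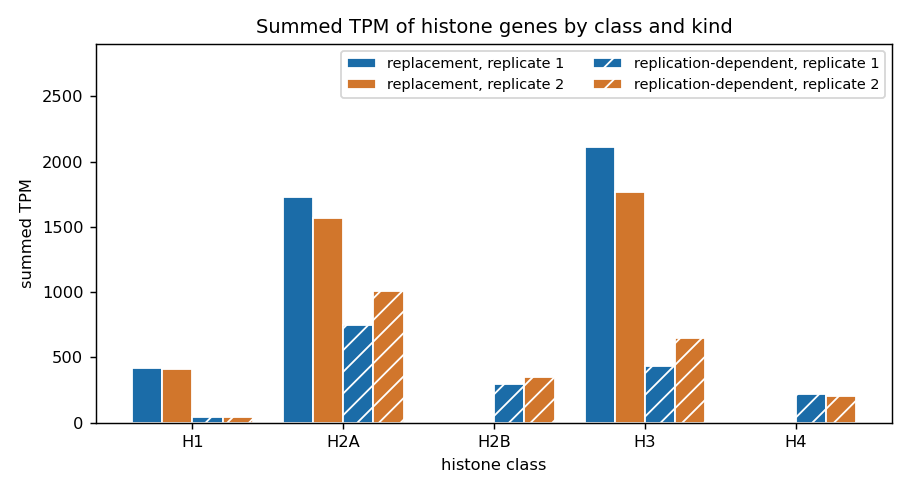
Summed TPM (vertical axis, from 0) of the histone genes of each class (horizontal axis) in each library; plain bars are replacement and hatched bars replication-dependent genes. Replacement genes stand above replication-dependent genes for H1, H2A and H3 in both libraries, while H2B and H4 have replication-dependent genes only.

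At least 1 TPM in both libraries was reached by 58 of 64 replication-dependent and 10 of 15 replacement members, where 62.8% of all protein-coding gene rows reached it, a share close to that of the replacement kind. The median of the mean TPM was 16.5 for replication-dependent members, 114 for replacement members and 5.84 for all protein-coding gene rows. Replication-dependent genes were thus numerous and individually modest: 38 of 64 stood at 10 TPM or more in both libraries and 1 at 100 TPM or more. Of the 15 replacement genes, 10 reached 10 TPM and 7 reached 100 TPM. Over all protein-coding gene rows the shares were 41.7% and 5.81%.

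Among the replacement genes the H3.3 genes and H2A.Z led. H3f3a, one of the genes for H3.3, the H3 form placed at active genes and at telomeres, read 1321 TPM in replicate 1 and 1059.8 TPM in replicate 2, a mean of 1190.3 ± 185 (SD, n = 2). H3f3b, the other H3.3 gene, read 789 and 711 TPM, with 749.8 ± 55.0. Both genes encode the same 136 residues with no difference. H3f3a stood above H3f3b per length in both libraries, by 1.67 and 1.49 times, but the counts ran the other way, 66810 and 52301 for H3f3a against 87745 and 76739 for H3f3b. H2afz, which encodes the H2A.Z form found beside transcription start sites, read 885 and 729.9 TPM, with 807 ± 109.6. The ranges of H2afz and H3f3b overlapped, so their order was not separated by the spread between the libraries.

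The other replacement H2A genes were lower and differed among themselves. H2afv, which encodes a second H2A.Z form differing at 3 of 128 residues, read 227 and 165 TPM, so that H2afz stood 3.90 and 4.42 times above it. H2afx encodes H2A.X, which is phosphorylated at DNA breaks, and read 259 and 369 TPM. H2afy, the gene of macroH2A1, a large H2A form of silenced chromatin, read 249 and 193 TPM, above its relative H2afy2 (macroH2A2) at 75.1 and 71.7 TPM. H2afj (H2A.J) was the lowest detected replacement gene, at 37.1 and 41.9 TPM. In the order of all 10 detected replacement genes, 3 of 9 neighbouring pairs overlapped between libraries.

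The detected replacement linker genes, H1f0 and H1fx, stood above all replication-dependent ones. H1f0, which encodes H1.0, the linker form known to rise as cells leave the cycle, read 319.9 and 283 TPM, a mean of 301 ± 26.4 (SD, n = 2). H1fx, another linker gene outside the clusters, read 97.9 and 130.2 TPM. Hist1h1c was the highest clustered H1 gene, at 19.7 and 23.3 TPM, so that H1f0 stood 16.2 and 12.2 times above it. Hist1h1e followed at 13.8 and 9.20 TPM, and Hist1h1b, Hist1h1d and Hist1h1a read 5.54 and 4.79, 3.56 and 2.43, and 3.52 and 1.69 TPM.

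Germline forms were at or near 0. Hist1h1t, the testis linker gene, read 0.23 and 0.37 TPM from 9 and 13 counts. H1foo, the oocyte linker gene, had 2 and 1 counts. The testis genes Hist1h2aa and Hist1h2ba, and H1fnt and H2afb1, H2afb2 and H2afb3, were listed at 0 counts throughout, a value that leaves room for 3 counts, or 0.0272 and 0.0290 CPM (counts scaled to library size). The testis markers Prm1, Prm2 and Tnp1 were at 0 counts likewise. Hist1h4m and Hist2h3c1 were also listed at 0, but 266 of the 302 stretches of read length in Hist1h4m stand in other genes as well, and all 1720 of those in Hist2h3c1, so a 0 there can also be a division of shared reads.

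**Figure D2:**
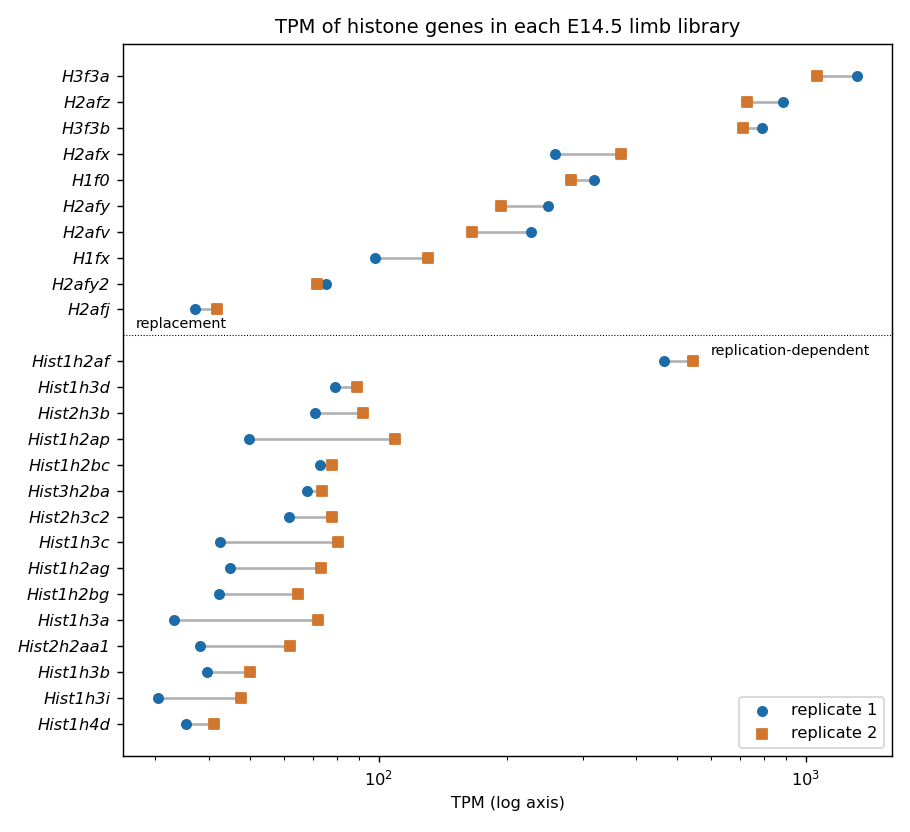
TPM (horizontal log axis) of the 10 detected replacement genes and the 15 highest replication-dependent genes, with circles for replicate 1, squares for replicate 2 and a grey line for the range between them. Hist1h2af stands apart from the other replication-dependent genes, between 465 and 544 TPM, and the rest of those plotted lie between 30.4 and 109 TPM.

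A single gene led the replication-dependent kind. Hist1h2af, an H2A gene at chr13:23533906-23534304 (plus strand, ENSMUSG00000061991.2), read 465 TPM from 6978 counts and 544 TPM from 6571 counts, a mean of 504 ± 55.8 (SD, n = 2). It held 26.5% and 24.1% of all replication-dependent TPM and stood 5.88 and 6.10 times above the next gene per length, Hist1h3d. On counts the next gene was Hist2h3c2, and Hist1h2af stood 1.83 and 1.52 times above it. The interval deposited with each value ran from 450.5 to 472 TPM in replicate 1 and from 525 to 552 TPM in replicate 2, narrower than the gap in TPM between the libraries. TPM divides by an effective length, here 200 and 173 nucleotides, and without that division Hist1h2af read 63.3 and 63.6 CPM. Its annotated model is 399 nucleotides long, ends 1 base after the stop codon and holds no stem-loop match. Of its 299 stretches as long as a read, 195 (65.2%) also stand in transcripts of 16 other genes, and its counts were fractional, so the value rests in part on how shared reads were divided. On the other strand, M21 places a miRNA gene, Gm44297, within it. The neighbouring replication-dependent genes Hist1h3g, 1118 bases downstream, and Hist1h4h, 2387 bases upstream, averaged 30.5 and 15.2 TPM.

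Behind it came H3, H2B and H2A genes of similar level. Hist1h3d, an H3 gene, read 79.1 and 89.2 TPM, and Hist2h3b, an H3 gene of the chromosome 3 cluster, 70.9 and 91.6 TPM. Hist1h2ap, an H2A gene, read 49.7 and 109 TPM, 2.19 times higher in replicate 2. The ranges of these genes overlapped.
Hist1h2bc, the highest H2B gene, read 72.8 and 77.9 TPM, and Hist3h2ba, the H2B gene of the small chromosome 11 cluster, 67.8 and 73.8 TPM. Hist2h3c2 read 61.8 and 77.9 TPM. Hist1h3c read 42.5 and 80.2 TPM. In all of these genes replicate 2 was the higher library in TPM. In CPM the libraries were nearly equal for Hist1h2bc (26.6 and 26.8), Hist3h2ba (19.1 and 19.3) and Hist1h3d (19.4 and 20.1). Hist2h3b, Hist1h2ap, Hist2h3c2 and Hist1h3c were higher in replicate 2 in CPM by more. Hist1h2ag read 44.8 and 73.1 TPM, Hist1h2bg 42.2 and 64.6 TPM, Hist1h3a 33.1 and 72.1 TPM, and Hist2h2aa1 38.1 and 61.8 TPM. Hist1h3b (mean 44.8 TPM) and Hist1h3i (mean 39.0 TPM) completed the H3 genes of the leading 15. Hist1h4d, at 35.4 and 41.0 TPM, was the highest H4 gene. Of the 14 neighbouring pairs in this order, 13 overlapped between the libraries, the exception being Hist1h2af and Hist1h3d. The 10 highest genes held 56.9% of replication-dependent TPM in each library.

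The clusters differed in size and level. The Hist1 cluster, 52 members over 2.22 Mb of chromosome 13 (chr13:21715763-23934851), summed to 1458 and 1873 TPM, with 47 members detected. The Hist2 cluster, 9 members over 0.0493 Mb of chromosome 3 (chr3:96219865-96269141), summed to 201 and 278 TPM, with 8 detected. The highest H2A, H2B, H3 and H4 genes of Hist2 were Hist2h2aa1, Hist2h2be (7.09 and 6.94 TPM), Hist2h3b and Hist2h4 (5.34 and 4.84 TPM). Hist3h2a and Hist3h2ba, the members of the chromosome 11 cluster, summed to 91.2 and 100.9 TPM, of which Hist3h2a, an H2A gene, had 23.4 and 27.1 TPM. Hist4h4, the only member on chromosome 6, read 1.02 and 1.28 TPM.

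Within a class many genes encode the same protein. All 13 H4 genes encode 1 protein of 103 residues, and the 12 clustered H3 genes encode 2 proteins of 136 residues that differ at 1 residue. The 18 H2A genes encode 9 proteins, 9 of the genes sharing one of them, the 15 H2B genes encode 9, and the 6 H1 genes encode 6. The H3 genes could thus be grouped by product. The 4 genes for H3.1 (Hist1h3a, Hist1h3g, Hist1h3h and Hist1h3i) summed to 109 and 207 TPM, the 8 genes for H3.2 to 329.6 and 443 TPM, and the 2 genes for H3.3 to 2110 and 1771 TPM. H3.3 differs from H3.1 at 5 residues and from H3.2 at 4. In this poly(A)-selected RNA, transcripts of H3.3 genes exceeded those of H3.1 and H3.2 genes together in both libraries, and H3.2 exceeded H3.1. The ranges of these 3 sums did not overlap. Of the 311 stretches of read length in Hist1h3h (H3.1), however, 187 stand also in Hist1h3b (H3.2). The H3.1 and H3.2 sums thus depend in part on how shared reads were divided between the forms.

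Because products and coding sequences are so alike, reads are hard to assign to single genes. Counts were fractional, by more than 0.005 from a whole number, for 52 of 64 replication-dependent members and 4 of 15 replacement members. Among the 44 replication-dependent members whose model has the same length in M21 as in the deposited tables, a median of 51.8% of stretches of read length stood also in another gene, against 0.662% for 12 replacement members. The median was 76.1% for H2A (n = 15), 64.8% for H3 (n = 8), 48.2% for H2B (n = 10), 31.7% for H4 (n = 9) and 2.5% for H1 (n = 2). Levels of single H2A and H3 genes are therefore uncertain, and class sums are firmer where sharing stays within a class. Genes outside the rule also share sequence: H3f3a with the processed pseudogene H3f3c (65.4 and 24.8 TPM), H2afz with the processed pseudogene Gm8203 (9.03 and 13.3 TPM), Hist2h2aa2 and Hist2h3c1 with Gm20634 (2.77 and 3.18 TPM), and Hist3h2a with Trim17 (0.74 and 1.12 TPM). Hist1h2be and Hist1h1e overlap on the same strand. Of the 12 replication-dependent members with whole counts, 7 were detected, led by Hist1h4d, and their median was 1.49 TPM.

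The annotated 3′ ends were then set against the levels. Taking the highest transcript of each of the 64 members as its model, 44 kept their length between the annotation of the tables (GENCODE M4) and M21, and 17 of the other 20 were longer in M21, by a median of 244 and up to 6681 nucleotides. Among the 44, 17 ended within 100 bases of the stem-loop, and none of those had a polyadenylation signal. Another 9 ran further than 100 bases past it, and 7 of those ended with a signal. The remaining 18 held no stem-loop match. Of these, 12 ended at the stop codon, and 3 had a signal.

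**Figure D3:**
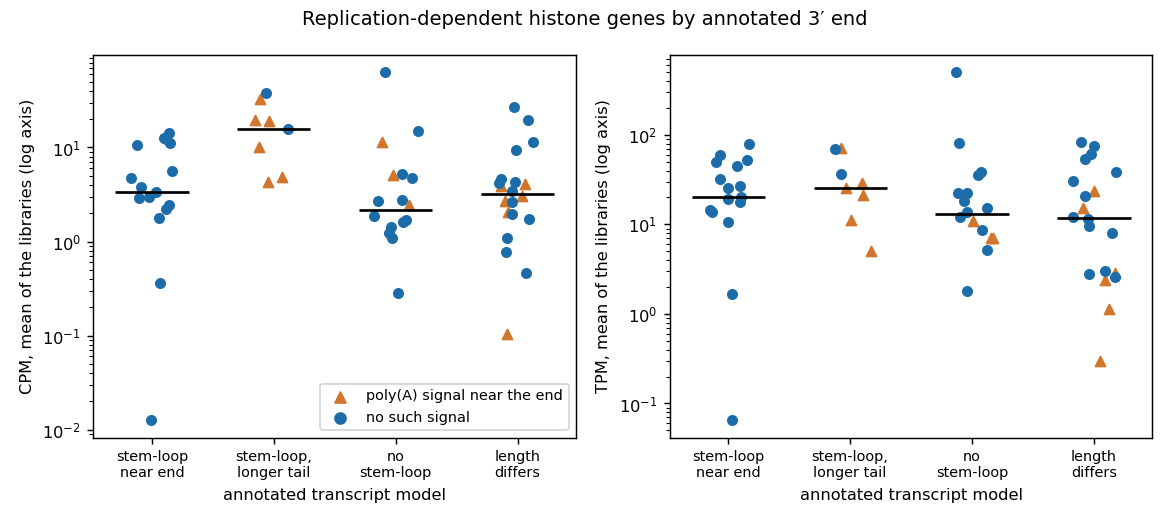
Mean CPM (left) and mean TPM (right), both on log axes, of the replication-dependent genes by annotated 3′ end; triangles have a polyadenylation signal near the end, circles none, and the line is the median of the category with members at 0 included. Members listed at 0 are not drawn. The models with a longer tail have the highest median in CPM, 15.6 against 3.39 for those that end near the stem-loop, and a smaller lead in TPM, 25.3 against 20.1.

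Genes whose models run past the stem-loop took more counts per gene. Their median was 15.6 CPM, against 3.39 for models ending near the stem-loop and 2.14 for models with no match. Per length the medians were closer, 25.3, 20.1 and 12.9 TPM, as the models with a longer tail had a median length of 1020 nucleotides against 476 and 402. The 17 models that end near the stem-loop still belonged to 15 detected genes, with gene values from 1.66 TPM for Hist1h2bp to 79.4 TPM for Hist1h2ap. The Hist1h2bp gene value joins 2 transcripts. Its stem-loop model read 0.62 and 1.24 TPM, and a transcript with a polyadenylation signal and no stem-loop match read 0.93 and 0.52 TPM. An annotated end is not a measured one: the tables hold no read positions, so which end the selected molecules had was not tested. The longer-tail set was led in TPM by Hist3h2ba (70.8) and Hist2h3c2 (69.8), followed by Hist1h3e (37.0), Hist1h4i (29.0), Hist3h2a (25.3), Hist1h1c (21.5), Hist1h4j (11.3) and Hist2h4 (5.09), with Hist2h3c1 at 0.

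RNAs that lack a poly(A) tail were present as well. Of 11 such RNAs listed, 6 were at 1 TPM or more in both libraries, including Rn7sk, the 7SK RNA, with 54002 and 54010 counts, Rmrp with 1178 and 2159 counts, and Rpph1 with 568 and 623 counts. The signal recognition particle RNAs Rn7s1 and Rn7s2, with identical values, had 5218 and 8937 counts. Rnu7, the RNA of the U7 particle, has a deposited effective length of 0 and so could not be measured. The same holds for Rnu11, Rny1 and Rny3, and Rnu12 had effective lengths of only 1.04 and 1.13 nucleotides. The listed RNAs outside the 6 detected were thus not shown to be absent. Among the 6 detected, TPM is inflated by effective lengths as short as 47.5 nucleotides, so counts are given here. Whether RNA without a poly(A) tail accounts for replication-dependent reads was not tested.

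The libraries were compared member by member on CPM scaled by TMM, a correction of library size, with a prior count of 0.5, over members with at least 10 counts in total. Each library is 1 sample, so past 1.5-fold is the call and there is no p-value. Of 59 replication-dependent members, 13 were more than 1.5-fold higher in replicate 2, where 6.45% of 20379 gene rows were, and 7 were more than 1.5-fold lower, where 12.0% were. None of the 10 replacement members passed in either direction. The median log2 ratio of replicate 2 over replicate 1 was 0.20 for replication-dependent members, -0.13 for replacement members and -0.01 for all gene rows. Among the 8 replication-dependent members with whole counts the median was -0.014. On TPM, which divides by a shorter effective length in replicate 2 where counts are left uncorrected, the calls were 18 higher and 4 lower. The shares of all gene rows past 1.5-fold were not computed on TPM.

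Among replication-dependent genes the direction differed by class. All 11 tested H3 genes of that kind were higher in replicate 2, and 14 of 16 H2A genes, where 49.3% of all gene rows were higher and 50.7% lower. Of the H4 genes, 9 of 12 were lower, as were 4 of 6 H1 genes, while 9 of 14 H2B genes were higher. Of the replacement genes, H3f3a and H3f3b had log2 ratios of -0.24 and -0.08, and H2afz, H2afv, H2afy, H2afy2 and H1f0 were lower as well. H2afx, H1fx and H2afj went the other way, with log2 ratios of 0.49, 0.38 and 0.16. The replication-dependent median log2 ratio was 0.54 for H2A, 0.50 for H3, 0.07 for H2B, -0.14 for H4 and -0.44 for H1. On TPM the medians were 0.68 for H2A, 0.64 for H3, 0.17 for H2B, -0.035 for H4 and -0.38 for H1, and 5 of 12 H4 genes were higher. With whole counts alone H2B (1 gene) stood at -0.038 and H4 (3 genes) at 0.0090. The only tested H2A gene with whole counts, Hist2h2ab, stood at 0.49. The H1 genes Hist1h1t, Hist1h1b and Hist1h1a stood at 0.62, -0.27 and -1.13. No tested replication-dependent H3 gene had whole counts, so the direction of single H3 genes rests on divided reads. The 13 higher calls were 7 H2A, 5 H3 and 1 H1 gene, and the 7 lower calls 4 H4 and 3 H1 genes. On counts, 4 members were past 2-fold higher: Hist2h2aa2, Hist1h2ah, Hist1h2ad and Hist1h3a, with log2 ratios of 1.54, 1.24, 1.09 and 1.01. Hist1h1a was past 2-fold lower at -1.13. The shares of all gene rows past 2-fold were not computed. The genes past 2-fold in TPM with a mean of at least 10 TPM were Hist1h2ap, Hist1h3a, Hist1h2ai (14.9 and 30.1 TPM), Hist2h2aa2 (6.64 and 20.9 TPM) and Hist1h2an (7.89 and 16.01 TPM), all of them H2A or H3 genes with fractional counts. Of these 5, Hist1h2ap, Hist1h2ai and Hist1h2an were not past 2-fold on counts.

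**Figure D4:**
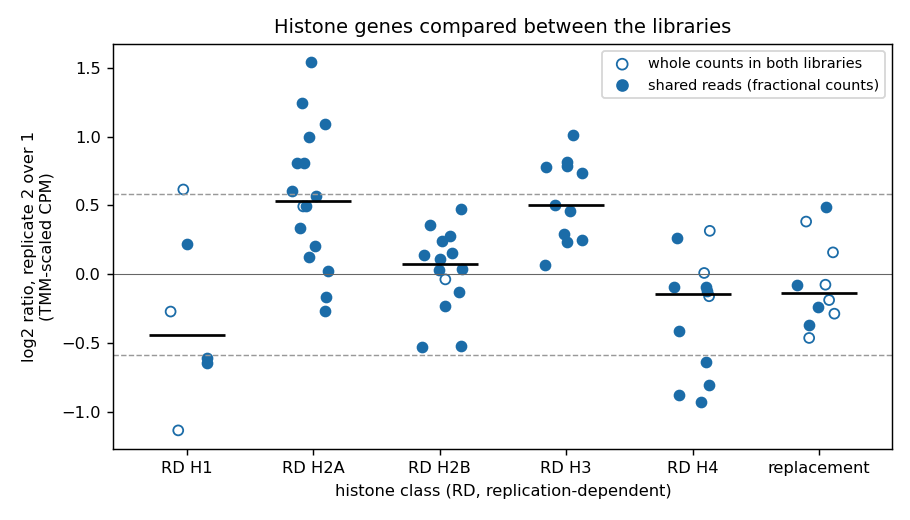
Log2 ratio of replicate 2 over replicate 1 (vertical axis, TMM-scaled CPM) for each member with at least 10 counts, by class; RD marks replication-dependent genes, open circles have whole counts in both libraries, the line is the median and dashed lines mark 1.5-fold. All replication-dependent H3 genes lie above 0, replication-dependent H2A genes mostly above and H4 genes mostly below, while both replacement H3 genes and 4 of 6 replacement H2A genes lie below.

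Summed over a class, the counts no longer depend on how reads were divided within it, and the shares are given with intervals that cover counting error only, not the spread between samples. H3 genes took 13427 counts (0.0122% of the library, 95% Wilson interval 0.0120 to 0.0124) in replicate 1 and 16575 counts (0.0160%, 0.0158 to 0.0163) in replicate 2. H2A genes took 0.0145% (0.0142 to 0.0147) and 0.0174% (0.0171 to 0.0176). H4 genes took 0.00455% (0.00443 to 0.00468) and 0.00405% (0.00393 to 0.00417). H2B genes took 0.00947% (0.00929 to 0.00965) and 0.00972% (0.00953 to 0.00991). H1 genes took 0.00279% (0.00270 to 0.00289) and 0.00273% (0.00263 to 0.00283). The sums were thus higher in replicate 2 for H2A and H3 and lower for H4, with no replicate of the difference. For H2B and H1 the intervals of the libraries overlapped, so their sums were not separated beyond counting error. Replacement genes together took 0.313% and 0.281%.

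Other gene groups were compared in the same way, against the 6.45% higher and 12.0% lower among all gene rows. Limb markers had a median log2 ratio of 0.43, with 2 of 11 past 1.5-fold higher, Prrx2 and Sox9. S-phase and proliferation genes had a median of -0.20, with 3 of 15 past 1.5-fold lower: Gmnn, Mki67 and Top2a. No other gene of that list, Pcna and the Mcm genes included, passed in either direction. All 15 were at 1 TPM or more in both libraries, from 11.8 TPM for Cdc6 to 247 TPM for Pcna. Of the 6 RNAs without a poly(A) tail with at least 10 counts, 3 were past 1.5-fold higher (Rmrp and the identical Rn7s1 and Rn7s2) and 1 lower (Terc). The part of any of these in the histone pattern was not tested, and in bulk tissue fewer cells of a type and less RNA per cell cannot be told apart. Markers of other organs gave little: heart and lung markers were below 1 TPM in both libraries, all 4 liver markers were detected at a mean of 3.40 to 21.6 TPM, and of 3 brain markers only Emx2, with 15.6 TPM, was detected.

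Many H2A and H2B genes are neighbours that start back to back. Among members, 12 pairs on opposite strands had annotated starts 176 to 306 bases apart, and all 12 joined an H2A with an H2B gene. In the 11 pairs with a level, the partners differed by a median of 3.15 times in mean TPM, and 3 pairs were within 2-fold. Hist1h2ac, at 8.11 and 11.3 TPM, stood below its partner Hist1h2bc in both libraries, and Hist1h2ap stood above Hist1h2br, at 8.33 and 5.90 TPM. However, 92.1% of the stretches of read length in Hist1h2ap and 99.8% of those in Hist1h2br stand in other genes as well. Differences between partners thus depend in part on how shared reads were divided. In the 300-base promoter windows of RefSeq (GRCm38.p6, 250 bases before to 50 after the start, both strands searched), CCAAT was found for 49 of 58 matched replication-dependent members, 9 of 13 replacement members and 41.1% of 27025 genes. TATAAA was found for 35 of 58, 1 of 13 and 15.7%. The windows of head-to-head partners can overlap, so a motif between them can be counted for both genes.

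**Figure D5:**
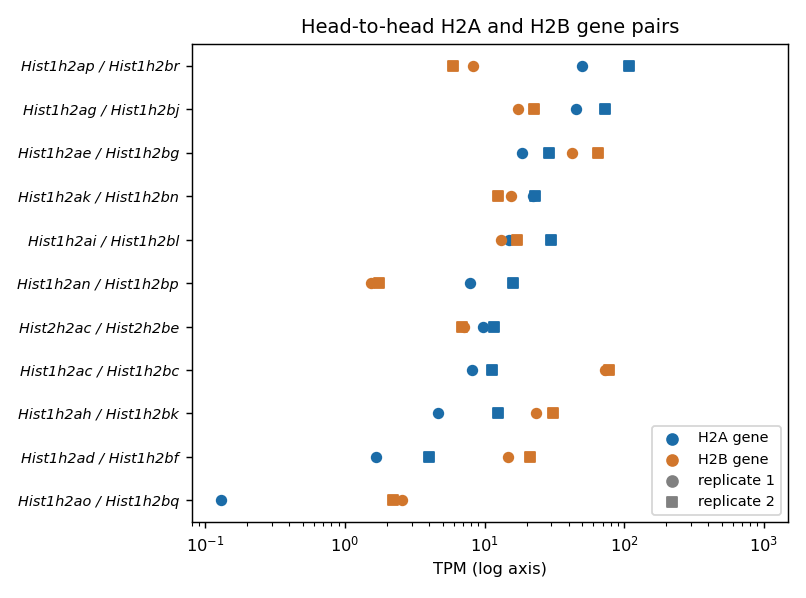
TPM (horizontal log axis) of the H2A gene (blue) and the H2B gene (orange) of each head-to-head pair, with circles for replicate 1 and squares for replicate 2; the pair listed at 0 and the replicate 2 value of Hist1h2ao, also 0, are not drawn. Either partner can be the higher one: H2B for Hist1h2bc and Hist1h2bg, H2A for Hist1h2ap and Hist1h2ag.

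The 5 members with 2 or more transcripts at a mean of at least 1 TPM were all replacement genes. For H3f3a, a coding transcript of 724 nucleotides held 58.6% and 54.9% of the gene and one of 888 nucleotides 32.8% and 35.8%. A longer form of 2841 nucleotides held 4.38% and 7.08%. For H3f3b, the coding transcript of 1993 nucleotides held 72.4% and 80.7%, and a processed transcript of 874 nucleotides 23.0% and 11.4%. The main transcript thus led in both libraries for each H3.3 gene. For H2afz, the coding transcript of 1069 nucleotides held 85.4% and 73.0%, and a coding one of 810 nucleotides 8.45% and 20.8%. H2afv divided between coding transcripts of 1633 nucleotides (65.0% and 66.6%) and 519 nucleotides (35.0% and 33.4%), shares that moved by less between the libraries than those of the other 4 genes. For H2afy, coding transcripts of 2046 and 2037 nucleotides held 32.4% and 36.3%, and 10.8% and 13.9%. Shorter non-coding models of 889 and 728 nucleotides held 30.6% and 26.6%, and 23.3% and 18.4%.

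The machinery of histone mRNA was expressed throughout. Of 20 genes for histone transcription and 3′ end formation, 19 were at 1 TPM or more in both libraries, with a median of 44.6 TPM. In replicate 2, 2 of the 20, Casp8ap2 and Snrpd3, were more than 1.5-fold lower, close to the 12.0% of all gene rows, and none was higher. Slbp, the stem-loop binding protein, read 127 and 98.2 TPM. The U7-specific proteins Lsm10 and Lsm11 averaged 38.9 and 6.41 TPM, and Zfp473, which binds Lsm11 and whose level was 1.33 and 0.91 TPM, was the one below the limit. The proteins shared by U7 and spliceosomal particles were higher, with Snrpb at 379, Snrpe at 290.2, Snrpg at 260.5, Snrpf at 134 and Snrpd3 at 49.0 TPM. The cleavage factors Sympk, Cpsf3, Cstf2, Cstf2t and Cpsf2 averaged 86.8, 40.3, 25.6, 22.4 and 11.4 TPM, and Srrt, which joins cap and 3′ end, 77.3 TPM. Npat, the coactivator of histone genes, averaged 11.5 TPM and Casp8ap2, its companion in histone locus bodies, 9.94 TPM. Cdk2, Ccne1 and Ccne2, the kinase and cyclins that act on Npat, averaged 93.8, 52.3 and 10.9 TPM.

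Turnover factors and chaperones were detected without exception. All 9 turnover genes were at 1 TPM or more, led by the uridylyl transferase gene Tut4 at 172 TPM, with Exosc10 at 59.7, Upf1 at 34.6, Mif4gd at 29.0, Tut7 at 15.6, Dcp2 at 13.0, Xrn1 at 12.4, Lsm1 at 11.5 and Eri1, the nuclease of the stem-loop end, at 8.09 TPM. All 27 chaperone and exchange genes passed too, around a median of 59.7 TPM. Of these, 3 (Npm1, Nasp and Nap1l1) were more than 1.5-fold lower in replicate 2, again close to the 12.0% of all gene rows, while no other chaperone and no turnover gene passed in either direction. Npm1, nucleophosmin, was the highest at 1026 and 518 TPM, followed by Hjurp, the chaperone of centromeric H3, at 263 TPM and the FACT subunit Ssrp1 at 214 TPM. Its partner Supt16 averaged 31.8 TPM. The general chaperones Set, Nap1l1, Nap1l4 and Nasp averaged 196, 178, 115 and 103 TPM, and the importin gene Ipo4 180.2 TPM. Chaperones of new H3 and H4 were Rbbp4 at 99.1, Asf1b at 59.7, Chaf1b at 36.2, Chaf1a at 28.9 and Asf1a at 18.6 TPM. Cdan1, on the same list but not itself a chaperone, averaged 35.5 TPM.

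Factors for H3.3 and H2A.Z stood at moderate levels beside their abundant cargo. For H3.3, Dek averaged 94.9, Atrx 68.6, Hira 39.6, Daxx 39.0, Ubn1 24.9, Cabin1 23.1 and Ubn2 18.8 TPM. For H2A.Z, Vps72 averaged 105 (108 and 103), Anp32e 96.3, Srcap 54.1, Ep400 52.4 and Ino80 13.2 TPM. Of 7 histone-fold genes outside the naming rule, 5 were detected: the centromeric H3 gene Cenpa at 138 and 142 TPM, and the kinetochore genes Cenpx, Cenpt, Cenps and Cenpw at 85.7, 54.5, 16.6 and 11.2 TPM. The spermatid gene Hils1 averaged 0.41 TPM, and H2bfm was at 0 counts.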

How the data were processed

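Each library had a gene table and a transcript table, which the authors made against mm10 with GENCODE M4, per the text file deposited with them; the sources used here name no program. The authors deposited, per the file headers, expected counts (estimated, reads fitting several genes shared among them), TPM with interval bounds and posterior mean TPM, FPKM, and in the transcript tables the percent of each gene given to a transcript. Nothing was realigned. Effective lengths, as deposited, fell short of the length by about 199 nucleotides in replicate 1 and 226 in replicate 2. For short genes, TPM in replicate 2 is therefore higher relative to counts. Counts carry no correction for this difference in effective length. The libraries were compared on counts with TPM given beside them, and which scale is nearer the RNA was not tested.

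Symbols, biotypes, coordinates and transcript sequences came from GENCODE M21 by gene identifier; 884 of 43346 gene rows had no match. Of 82 protein-coding symbols of the naming rule, 3 (Hist1h2bh, Hist1h2bm and Hist2h2bb) had no row. Spike-in, phiX and tRNA rows, 3.73% and 4.30% of counts, were left out. Expected counts were scaled, unrounded, by TMM (edgeR 4.0.16, R 4.3.3; factors 1.01 and 0.993) and, as an alternative, by size factors from rounded counts (DESeq2 1.42.0; 1.04 and 0.961); the ratio step was tested on simulated data. Detected means 1 TPM or more in both libraries. A count of 0 allows up to 3 counts. Intervals and this limit cover counting error only, since no molecular identifiers are given.

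The libraries form 1 group, so no test between groups was made; even 2 libraries against 2 could not go below an exact p of 0.333. Named genes were all replacement members, the 15 highest replication-dependent members, the highest of each class and cluster, those at 0 counts, those past 2-fold between libraries, those with several transcripts and the genes of 4 companion lists. Gene pairs whose ratio is given were picked after the levels were seen. The members and lists were chosen with earlier results of these data known. The alternatives tried were other units, thresholds, scalings, biotypes, members with whole counts, and leaving out a replicate.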

Additional observations from a re-analysis of the deposited data

Results flagged for a closer look

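Hist1h2aj, which M21 lists as an unprocessed pseudogene and which therefore stood outside the protein-coding members, had 25.97 counts (2.26 TPM) in replicate 1 and 58.1 counts (6.58 TPM) in replicate 2, above the limit of 3 counts in both libraries. Its counts were fractional.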

How the results depend on the processing

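The number of detected members stayed within 1.5 times of 58 and 10 under other TPM limits, posterior mean TPM, FPKM, 10 counts, any biotype and either library alone. Restricted to members with whole counts, 7 replication-dependent and 6 replacement members were detected, the medians were 1.49 and 39.5 TPM, the replication-dependent share was 6.13%, the calls between libraries were 1 higher and 1 lower, and the replication-dependent median log2 ratio turned to -0.014; fewer members enter by construction. Class medians turned to -0.038 for H2B (1 gene) and 0.0090 for H4 (3 genes) there, in alternatives chosen after seeing the data. No tested replication-dependent H3 gene had whole counts. The replication-dependent median was 10.8 in FPKM, 3.40 in CPM, 15.1 TPM with any biotype, 15.2 TPM without Hist1h2af, and 15.1 to 16.6 TPM in single libraries; the replacement median was 74.2 in FPKM. The share was 13.6% in CPM and 27.2% without Hist1h2af. Past 2-fold, 4 members were higher and 1 lower. In TPM and posterior mean TPM 4 were lower at 1.5-fold. Shares over all gene rows were not computed for these settings, and the cause was not tested. Of 102 named genes, 9 moved by over 1 SD with posterior mean TPM, and those at 10 TPM or more by at most 3.66%. No paired analysis was possible because both libraries belong to 1 group. Members at 0 counts are limited by depth to under 3 counts.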
